A study of Mus musculus with 34 samples.

Results

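Gene expression in the whole cornea of wild-type CB6 mice was compared between postnatal day 28 (P28, 3 arrays) and postnatal day 14 (P14, 3 arrays). The 6 arrays were chosen by their age labels alone, out of the 34 arrays of a series that follows the mouse cornea over 12 ages with Affymetrix gene arrays. All 6 held RNA of untreated wild-type corneas dissected from the globe, and no label gives a genotype or treatment other than age. Each value is 1 intensity per gene and array on a linear scale. Differences between ages are given as log2 of the intensity after adding 16, P28 minus P14, with the standard error (SE) of a limma fit over the 32 whole-cornea arrays, and p-values were adjusted by the Benjamini-Hochberg method over the 12998 genes tested. Genes with a log2 difference of at least 1 in size and an adjusted p under 0.05 were called, and "rose" or "fell" is used below only of called genes. Whether the 3 arrays of an age came from 3 animals is not stated in the labels, and the p-values therefore reflect the spread between these samples, which may be technical. Whole corneas were measured, so fewer cells of a type and less RNA per cell cannot be told apart.

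The cornea is the clear front wall of the eye. A stratified epithelium lies on its outer face, a collagen-rich stroma made by keratocytes forms most of its thickness, and a pumping endothelium lines its inner face. Mouse pups open their eyelids near the end of the second postnatal week, after which the epithelium gains cell layers and an apical glycocalyx of membrane mucins under the tear film, while matrix production by stromal cells slows and the stroma compacts.

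The arrays carried products of the corneal epithelium and of the stroma. Krt12, the keratin specific to corneal epithelium, had a mean intensity of 9525 ± 1040 (SD, n = 3) at P14 and 15030 ± 675 (SD, n = 3) at P28. Kera, the keratocyte proteoglycan keratocan, stood at 7225 ± 1830 (SD, n = 3) and 4767 ± 792 (SD, n = 3). Neither gene was called: the log2 difference was 0.66 (SE 0.19) for Krt12 and -0.58 (SE 0.57) for Kera, with adjusted p of 0.00888 and 0.473. The median intensity of the 6 arrays lay between 188.2 and 232.1. Across all genes, arrays of the same age correlated with r between 0.928 and 0.979, and arrays of different ages with r between 0.851 and 0.901.

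A break between arrays falls exactly between P14 and P28. At 8 probe sets without a gene symbol, every array from E14.5 to P14 read at least 1501 and every array from P28 to 2 years read at most 12.8. The labels name no batch, and the P14 and P28 arrays lie on opposite sides of this break, so the effects of age and of the array batch cannot be told apart anywhere in the comparison. Other tissue was also present on some arrays. The 19 lens genes summed to 71250 on P14 replicate 2 and 38050 on P28 replicate 2, against 4926 to 9244 on the other 4 arrays, and none of the 19 was called. Retinal genes summed to 7212 on P14 replicate 2 and to between 1382 and 3409 on the other P14 and P28 arrays. Of the 6 arrays, P28 replicate 1 alone had a high Xist signal. The Y-linked gene Eif2s3y read 1403.5, 1292.4 and 1227.1 at P14 and 0.4, 2025.7 and 1904.5 at P28. The sex of the samples therefore differed within P28 and also between the ages. Of 9 skeletal muscle, 9 pigment cell, 6 smooth muscle, 5 blood, 8 vessel and 3 eyelid skin genes tested, none was called. All 8 vessel genes nevertheless read lower at P28, between -1.36 and -0.18 with a median of -0.56. In the fit of the 6 arrays alone 2 vessel genes and 1 smooth muscle gene were called lower. Of 11 retinal genes Gnat1 rose (1.78, SE 0.66), a call lost when P14 replicate 1 or 3 or P28 replicate 1 or 2 was left out, and of 5 goblet cell genes Agr2 fell (-1.22, SE 0.29), which was lost without P28 replicate 3.

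Between P14 and P28, 994 of 12998 genes (7.65%) were called: 539 (4.15%) were higher at P28 and 455 (3.5%) were lower. The shares of 4.15% and 3.5% are to be set beside each list count below. The falls were the larger changes, with a median absolute log2 difference of 1.51 against 1.26 for the rises, and 99 falls against 55 rises reached a log2 difference of at least 2. Without the threshold on size, 3121 genes were higher and 1023 lower at an adjusted p under 0.05. The median difference over all genes was 0.11. The direction of the split depended on the scaling: 54.2% of called genes were higher on the values as deposited, 43.9% after quantile normalization and 43% after median centring, which move the median of all genes to 0.01 and 0. The 3 P28 arrays lay wholly above the 3 P14 arrays for 33.3% of all genes and wholly below for 12.7%, and for 522 of the 539 called higher and 451 of the 455 called lower. P14 replicate 1 was the highest P14 array for 333 of the 455 called lower and 306 of the 539 called higher, against 47.4% of all genes.

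The called genes were set beside the layers of the cornea. The series holds 1 array of P28 epithelium, lifted off with dispase, and 1 array of P7 stroma, laser-captured from sections. They differ in age, preparation and signal floor (lowest intensity 41.8 and 42.6), so their contrast is a description with no test. A gene that changes with age alone also differs between these arrays, and layer and age cannot be told apart there. With both arrays centred on their medians, 186 of the 539 genes that rose (34.5%) read at least 2-fold higher in the epithelium and 7 (1.3%) at least 2-fold higher in the stroma. Among the 455 that fell, 150 (33%) read higher in the stroma and 0 in the epithelium. Over all genes tested the shares were 3.58% for epithelium and 3.13% for stroma. The other 346 called higher and 305 called lower read within 2-fold. Genes of some other tissues also read higher on the stroma array. The median difference of epithelium minus stroma was -4.38 for lens, -2.29 for skeletal muscle and -1.71 for eyelid skin genes. It was -0.05 for retinal, -0.02 for blood and 0.04 for goblet cell genes, and 0.04 over all genes. A higher reading on the stroma array therefore does not place a gene in keratocytes. Krtdap, a keratinocyte gene that fell, read lower on the epithelium array than on the stroma array (-2.64).

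**Figure D1:**
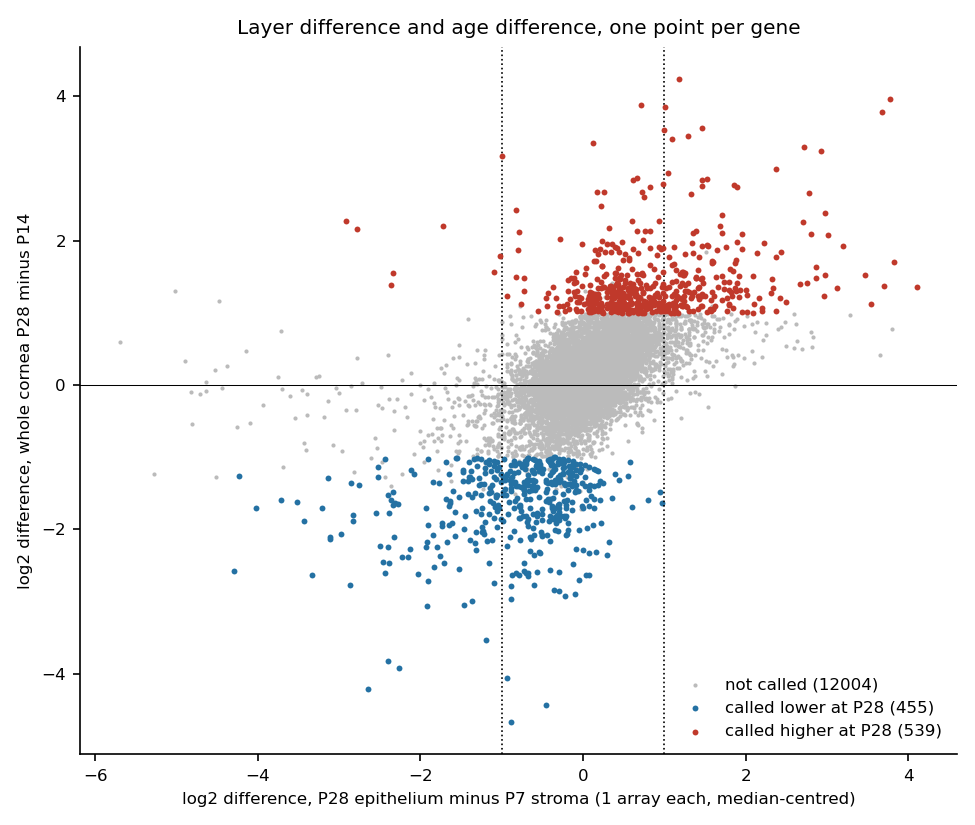
Each point is 1 gene: the x axis is the log2 difference of P28 epithelium minus P7 stroma (1 array each, median-centred) and the y axis the log2 difference of whole cornea at P28 minus P14; dotted lines mark a 2-fold layer difference. The 539 genes called higher at P28 (red) spread to the epithelial side and the 455 called lower (blue) to the stromal side, while genes not called (grey) fill the centre.

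The largest rise was that of Gkn1, gastrokine 1, a small secreted protein known from the stomach mucosa. Its intensities were 143.4, 279.9 and 261.8 at P14 and 3655, 4237 and 5656 at P28, a log2 difference of 4.24 (SE 0.22, adjusted p = 5.75e-12). Every P28 array was above every P14 array, but lack of overlap was a condition for the 15 largest rises and falls named here. Gkn1 belongs to a list of mucins and mucosal secreted proteins in which 4 of 13 tested members rose and 1 fell, with a list median of -0.06. Without P28 replicate 3, the lowest P28 array for 9 of the 13, 5 rose, 0 fell and the median was 0.55. Muc15, a membrane mucin, read 294.4, 190.7 and 290.7 at P14 and 1693, 1780 and 1597 at P28 (log2 difference 2.66, SE 0.41, adjusted p = 3.72e-05). Clca2, a cell-surface regulator of chloride conductance, read 66.39, 85.02 and 104.2 before and 473.8, 452.2 and 483.1 after (2.28, SE 0.19). The ages did not overlap for either gene. The fourth riser, the mucin-like gene Gm9573, went from 1600, 1268 and 1883 to 5944, 5468 and 2861. Muc1, the widely expressed membrane mucin, was the member that fell, from 1509, 1037 and 1140 to 793.3, 502 and 228.2 (-1.39, SE 0.29), a call that was lost without P28 replicate 3, its lowest array.

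Genes of the Ly6 and Slurp family rose in 5 of 15 tested cases (33.3%, against 4.15% of all genes), none fell, and the list median was 0.51. The other 10 were not called and included values near 0, such as Ly6d (-0.08) and Cd59a (-0.12). These are small proteins with a shared fold, secreted or anchored to the cell surface. Slurp1, a secreted member abundant in corneal epithelium, had P14 intensities of 432.9, 505.1 and 491.1 and P28 intensities of 7757, 7491 and 7641. The difference was 3.96 (SE 0.46, adjusted p = 1.07e-06), and the 3 arrays of each age lay close together. Ly6g6c read 870.4, 503.9 and 696.7 at P14 and 7777, 7865 and 6356 at P28 (3.41, SE 0.32). Psca, a GPI-anchored member named after the prostate, read 561.7, 388.2 and 461.1 and then 8944, 8896 and 3682 (3.79, SE 0.59), with P28 replicate 3 well below the other P28 arrays but above all P14 arrays. Lynx1, a modulator of nicotinic receptors, rose by 1.71 (SE 0.33) and Lypd2 by 1.36 (SE 0.26). Lypd2 read 4327, 5228 and 5022 at P14 and 12510, 12700 and 12040 at P28.

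Proteases of the epithelial surface rose with them. Of 17 tested membrane proteases and serpins 7 rose and 1 fell, and the list median of 0.92 was the highest of the 46 lists examined. Tmprss11e, a transmembrane serine protease of squamous epithelia, read 254.8, 199.8 and 204.4 at P14 and 2045, 2714 and 2172 at P28 (3.3, SE 0.25, adjusted p = 5.17e-09). Tmprss11d rose by 1.93 (SE 0.33) and Tmprss11b by 1.24 (SE 0.28), and the P28 arrays of both lay above all P14 arrays. Cst6, the cysteine protease inhibitor cystatin E/M, rose by 1.39 (SE 0.2) although it read lower on the epithelium array than on the stroma array (-2.36). Tmprss11a, at 1702, 1571 and 2283 and then 5761, 5974 and 6291, rose by 1.71 (SE 0.51), a call lost without P14 replicate 2. The member that fell was Serpinb3a (-1.4, SE 0.4), which lost its call without P14 replicate 3 or P28 replicate 3. After quantile normalization 4 of the membrane proteases and serpins were called higher and the median was 0.6, and Tmprss11b was not called. Without both replicate 2 arrays 4 were called higher.

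**Figure D2:**
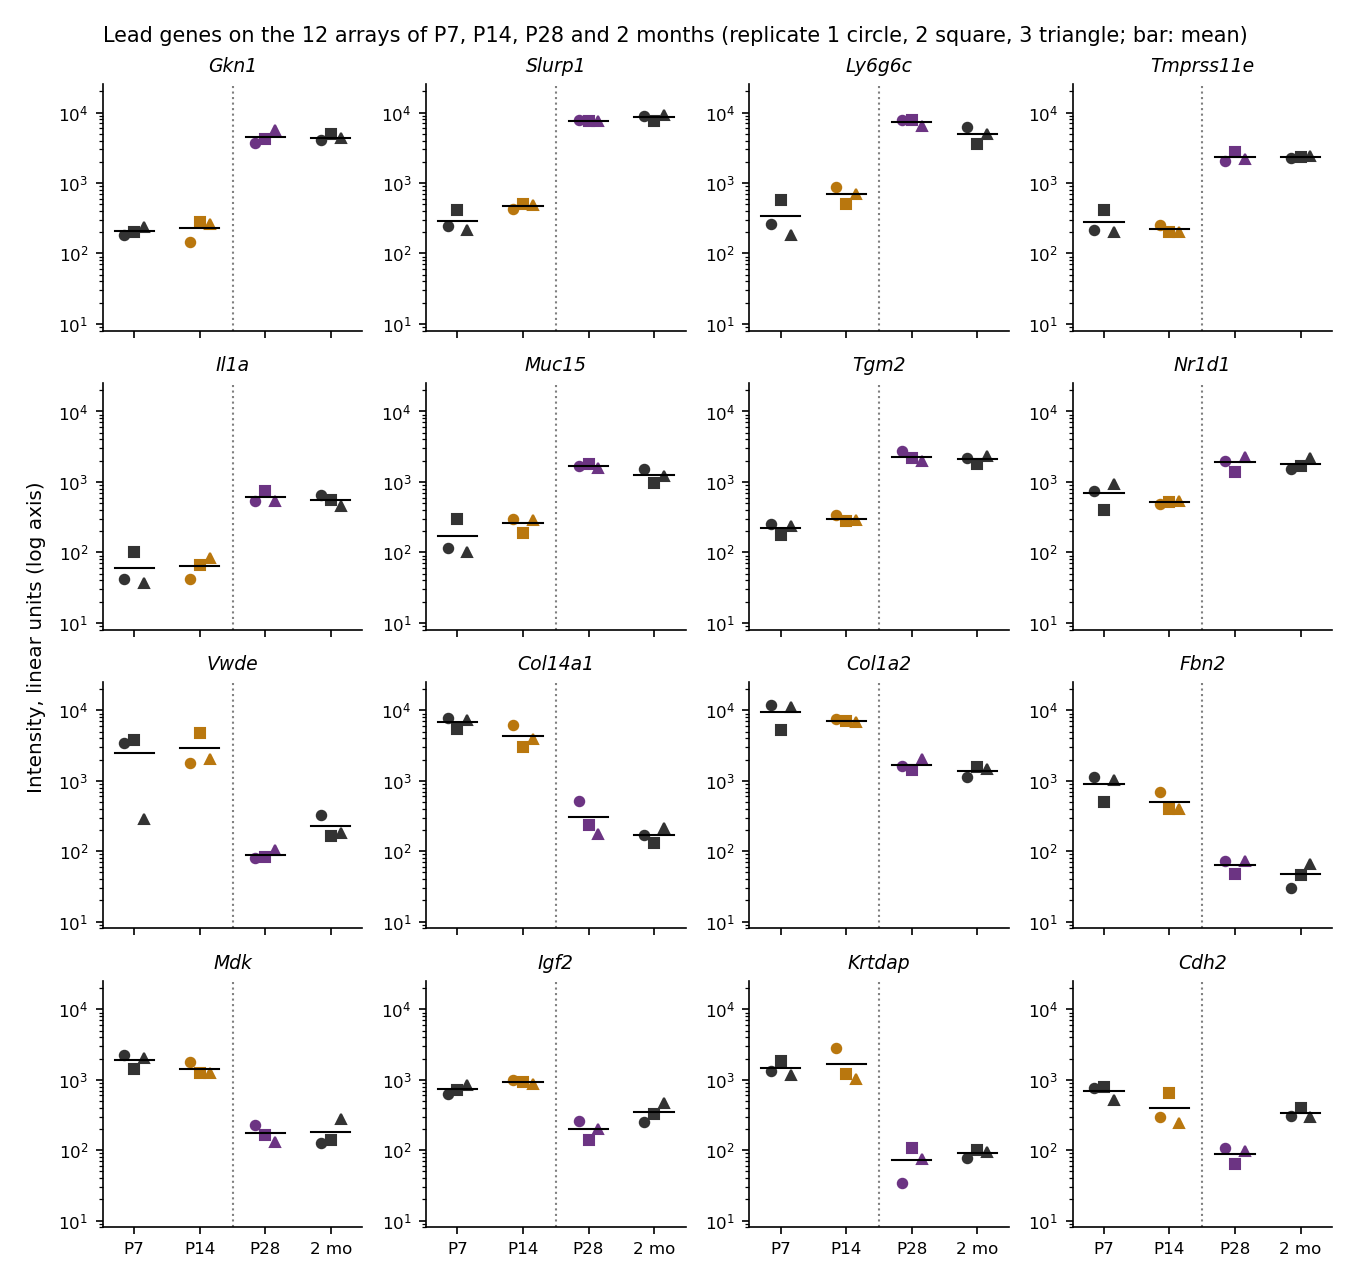
Intensity (linear units, log axis) of 16 genes on the 12 arrays of P7, P14, P28 and 2 months, with 1 marker per array (circle, square and triangle for replicates 1 to 3) and a bar at the mean; the dotted line marks the break between arrays. Gkn1 and Slurp1 step up and Col14a1 and Mdk step down between P14 and P28 and stay high or low at 2 months, while Cdh2 reads higher again at 2 months.

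Among 18 epithelial transcription factors 3 rose and none fell, and the list median was 0.74. Klf4, a Krüppel-like factor needed for the corneal epithelial barrier, read 798.2, 609.4 and 816.5 at P14 and 1766, 1854 and 3227 at P28 (1.56, SE 0.33, adjusted p = 0.00101). Ehf, an Ets factor of the same epithelium, went from 1863, 1940 and 2051 to 4699, 5675 and 4678 (1.35, SE 0.27). Klf3 stood at the threshold of the call, with a difference of 1 (SE 0.15), and its call was lost without P14 replicate 1, P14 replicate 2 or P28 replicate 3. Pax6, the eye master regulator, had a log2 difference of 0.5 (SE 0.25) and was not called.

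Keratins changed in both directions: 3 of 16 rose (18.8%), 4 fell (25%) and the median was -0.23. Over all genes these values were 4.15%, 3.5% and 0.11. The keratins of simple epithelia made up the falling side. Krt19 read 6666, 5293 and 4841 at P14 and 2300, 1678 and 561.9 at P28 (-2.08, SE 0.4, adjusted p = 0.000406). Krt7 fell by 2.27 on the log2 scale (SE 0.61), with P28 arrays at 1496, 689.3 and 140.6. Replicate 3 was the lowest P28 array for both genes, and without it the differences were -1.49 for Krt19 and -1.37 for Krt7, the latter no longer called. Without P28 replicate 1 the difference of Krt7 was -3. The paired keratins Krt8 (-1.26, SE 0.31) and Krt18 (-1.37, SE 0.26) also fell, with no overlap between ages. On the rising side, Krt78 read 321, 384.5 and 468.5 at P14 and 2365, 1520 and 648.5 at P28 (1.74, SE 0.3). Krt6a, a keratin of activated and mucosal epithelia, rose from 4335, 2965 and 3504 to 7907, 7900 and 7920 (1.15, SE 0.28), a call lost after quantile normalization. Krt23 lost its call when any array but P14 replicate 1 or P28 replicate 3 was left out. The basal-cell keratins Krt5 (0.3, SE 0.31) and Krt14 (-0.64, SE 0.36) were not called.

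Cell contacts and the cornified envelope moved less uniformly. In the list of tight and gap junctions 4 of 19 rose and 1 fell (median 0.62), and 2 rose after quantile normalization. Gjb5, a connexin of stratified epithelia, read 215.7, 145.7 and 189.1 at P14 and 687.5, 939.3 and 722.1 at P28 (2, SE 0.28, adjusted p = 1.48e-05), and Gjb6, another connexin, rose by 1.27 (SE 0.36). Cldn7, a claudin of the lateral membrane, rose by 1.2 (SE 0.36), whereas Cldn1 fell by 1.07 on the log2 scale (SE 0.29), and Cldn1 lost its call without P14 replicate 1 or P28 replicate 3. The fourth riser was Ocln (1.11). Without both replicate 2 arrays, the calls of Gjb6, Cldn7 and Ocln were lost and only 1 junction gene, Gjb5, was called higher. Of 24 desmosome and envelope genes 3 rose and 2 fell (median 0.45), but only 1 rose when P14 replicate 2 was left out or after quantile normalization. The gene that kept its call was Tgm5, a transglutaminase of the cornified envelope, at 135.2, 155.6 and 178.7 before and 755.7, 769.1 and 389.2 after (1.87, SE 0.21). Krtdap, a secreted peptide of differentiating keratinocytes, was among the deepest falls of all, from 2843, 1214 and 1024 to 34.46, 108.6 and 74.49 (-4.22, SE 0.35, adjusted p = 1.61e-08). In the basement membrane list 2 of 28 genes rose (7.14%) and 3 fell (10.7%), against 4.15% and 3.5% of all genes. The hemidesmosomal integrin Itga6 rose by 1.36 (SE 0.27) and the laminin chain Lama3 by 1.29 (SE 0.3). The mesenchymal laminin chains Lama2 (-1.39, SE 0.38) and Lama4 (-1.9, SE 0.48) and nidogen Nid1 (-1.27, SE 0.3) fell. Cldn7, Itga6 and Lama3 were not called after quantile normalization.

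Of 22 corneal enzyme-crystallins and detoxifying enzymes 6 rose and 1 fell (median 0.62). The abundant enzyme-crystallins were not among them. Aldh3a1, the aldehyde dehydrogenase that makes up much of the soluble protein of the cornea, differed by 0.77 (SE 0.18) and Tkt, transketolase, by 0.87 (SE 0.18), both under the size threshold although their adjusted p was 0.00276 and 0.000636. The carboxylesterase Ces1d rose from 1160, 695.8 and 984.3 to 2726, 3058 and 3334 (1.69, SE 0.3). Epoxide hydrolase Ephx1 rose by 1.33 (SE 0.2) and Aldh1a1 by 1.18 (SE 0.28), the latter not after quantile normalization. The cytochrome Cyp2f2 read 1434, 1622 and 330.4 at P14 and 6684, 3246 and 3685 at P28 (2.21, SE 0.48), and its difference was 1.49 without the low P14 replicate 3. Cyp1b1, a cytochrome active in the developing front of the eye, fell from 547.7, 389.2 and 440 to 150.5, 34.56 and 36.44 (-2.63, SE 0.45).

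Defence genes rose on some P28 arrays more than on others. Il1a, interleukin 1 alpha stored in epithelial cells, read 41.4, 66.06 and 82.55 at P14 and 531, 749 and 535.8 at P28 (2.99, SE 0.27, adjusted p = 4.29e-08), with the P28 arrays close together. Il18 read 185.3, 245 and 171.3 and then 1718, 1829 and 966.3 (2.77, SE 0.32). Pglyrp1, a peptidoglycan-binding antibacterial protein, rose by 1.64 (SE 0.42), and its difference was 2.1 without P28 replicate 3. P28 replicate 3 was the lowest P28 array for Il18, and for Il1f9 and S100a9 it stood further apart from the other P28 arrays. Il1f9, which encodes interleukin 36 gamma, read 91.7, 140.1 and 176.9 at P14 and 3503, 2724 and 424.8 at P28, a difference of 3.45 (SE 0.71) that became 4.39 without P28 replicate 3. S100a9, a calcium-binding protein of neutrophils and stressed epithelium, read 3160, 1855 and 202.9 at P28, the last within 162.1 to 216.4 on the P14 arrays. Its difference of 2.43 (SE 0.93, adjusted p = 0.0482) lost its call when P14 replicate 1, 2 or 3 or P28 replicate 1 or 2 was left out. In all, 5 of 19 epithelial defence genes rose and 1 fell (median 0.09), the faller being Il1rn, the interleukin 1 receptor antagonist (-1.23, SE 0.23), whose call was lost without P14 replicate 1 or P28 replicate 3.

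The same array was low for further genes. Plekhs1, which encodes a pleckstrin-homology domain protein, read 132.4, 158.2 and 144.8 at P14 and 4749, 4613 and 557 at P28 (3.86, SE 0.68, and 4.87 without P28 replicate 3). Clca3b, a relative of Clca2, read 52.34, 93.61 and 102.3 at P14 and 2759, 3211 and 144.8 at P28 (3.56, SE 0.64). Leaving out P28 replicate 3 raised its difference to 4.96, and leaving out P28 replicate 1 or 2 lowered it to 2.91 or 2.8. Itgam, an integrin of neutrophils and macrophages, had P28 intensities of 2292, 1803 and 361.7, the last below the 373.5, 446.1 and 440.2 of the P14 arrays, and lost its call without P28 replicate 1 or 2. In the fits of the 6 or 12 arrays alone without a block its adjusted p was 0.0877 and 0.0576, and with the replicate block in the 6 arrays it was 0.0402.

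Interferon-induced genes, which cells switch on through interferon receptors and STAT and IRF factors, showed the same order of P28 arrays. Ifit1, an RNA-binding antiviral protein, read 197.1, 184.2 and 195.4 at P14 and 1964, 621.9 and 192.8 at P28. Replicate 1 was high, replicate 2 intermediate, and replicate 3 lay among the P14 values. Its neighbour Ifit3 read 894.2, 716.1 and 903 and then 2894, 1359 and 549.5. Ifit1 was called (1.62, SE 0.48, adjusted p = 0.0116) but its difference was 0.81 without P28 replicate 1 and 2.43 without P28 replicate 3, and Ifit3 was not called (0.63, SE 0.43). The viral RNA sensor Ifih1 rose by 1.42 (SE 0.22) and the ubiquitin ligase Trim25 by 1.27 (SE 0.33), each with every P28 array above every P14 array. Of the 19 interferon genes tested 3 rose and none fell, with a median of 0.77. This count rested on single arrays: 11 were called without P28 replicate 3, 7 without P14 replicate 3, 5 without P28 replicate 2 and 2 without P28 replicate 1. After quantile normalization 5 of the interferon response genes were called.

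The order of the P28 arrays held across the list. P28 replicate 1 was the highest of the P28 arrays for all 19 interferon genes tested, against 33.9% of all genes, and P28 replicate 3 the lowest for 18 of 19, against 35.3% of all genes. The P14 arrays showed no such order: replicates 1, 2 and 3 were the highest for 5, 9 and 5 of the genes. P28 replicate 1 was also the array with the high Xist signal, whose part in these values was not tested. Replicate 3 was also the lowest P28 array for 13 of 19 epithelial defence genes. The plot of genes with a wide spread at P28 shows these arrays beside those of P7 and 2 months.

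**Figure D3:**
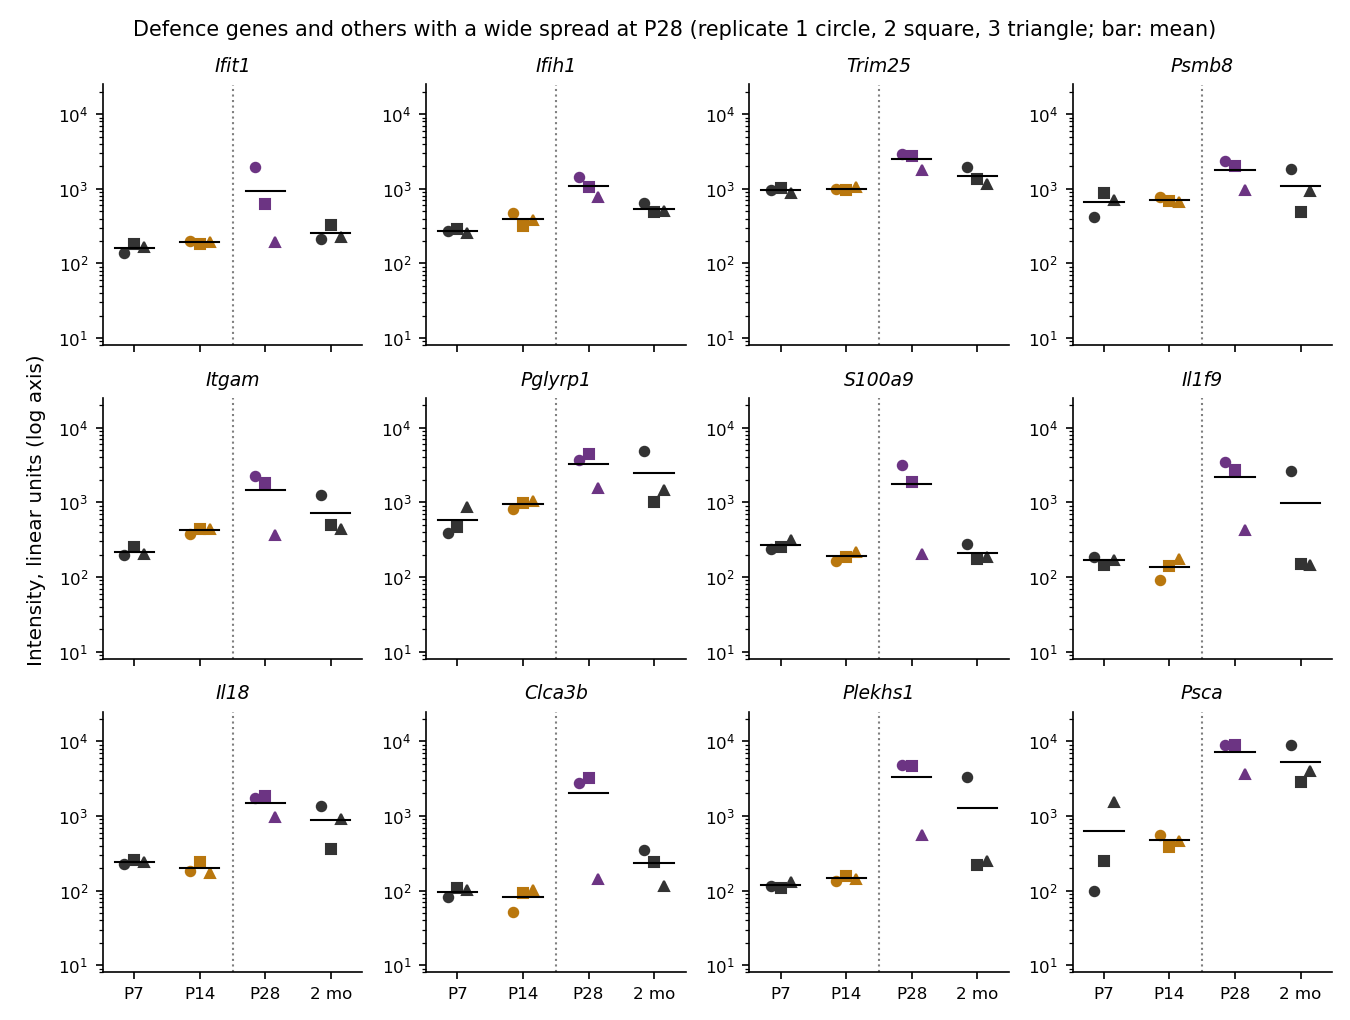
Intensity (linear units, log axis) of 12 genes on the arrays of P7, P14, P28 and 2 months, with 1 marker per array (circle, square and triangle for replicates 1 to 3) and a bar at the mean; the dotted line marks the break between arrays. At P28 the triangle of replicate 3 lies below the circle and square, down to the P14 level for Ifit1 and S100a9, and the 2 months arrays are spread for Il1f9, Plekhs1 and Psca too.

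The promoters of Ifit1 and Ifit3 are shown because both genes followed this order of arrays and their upstream sequence holds the element through which interferon-activated factors are known to bind. The motif searched, the interferon-stimulated response element, was taken as GAAA, any 2 bases and GAAA again, on both strands (on the opposite strand TTTC, any 2 bases and TTTC), in the 250 bases before the gene start in RefSeq (GRCm38.p6). In the lines below the matches are in capitals.
Ifit1, chr19:34640639-34640888, plus strand: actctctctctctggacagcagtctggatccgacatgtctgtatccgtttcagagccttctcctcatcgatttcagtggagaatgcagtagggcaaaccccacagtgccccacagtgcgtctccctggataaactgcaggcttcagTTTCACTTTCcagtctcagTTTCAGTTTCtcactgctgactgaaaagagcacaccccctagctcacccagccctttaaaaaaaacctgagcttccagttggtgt
Ifit3, chr19:34583279-34583528, plus strand: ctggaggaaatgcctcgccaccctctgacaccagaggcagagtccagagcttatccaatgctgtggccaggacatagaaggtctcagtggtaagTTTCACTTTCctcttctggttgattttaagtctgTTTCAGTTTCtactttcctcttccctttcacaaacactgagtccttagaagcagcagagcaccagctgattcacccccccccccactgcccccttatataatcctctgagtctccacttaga
Each window held 2 matches, which began 104 and 85 bases before the gene start in Ifit1 and 156 and 122 bases before it in Ifit3. Of 32851 promoter windows 2.98% held at least 1 match. Among the interferon genes 17 of 19 had a window in the table and 6 of these held a match, including Ifit1 but neither Ifih1 nor Trim25 of the 3 called genes. A match of letters is a description and was not measured as a binding site.

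In antigen processing 2 of 12 genes rose, the immunoproteasome subunits Psmb9 (1.41, SE 0.27) and Psmb8 (1.21, SE 0.39). Psmb9 read 756.3, 660.9 and 499.6 at P14 and 2157, 1791 and 1266 at P28. The call of Psmb8 was lost when any array but P14 replicate 1 or P28 replicate 3 was left out, and 3 members were called without P28 replicate 3. Leukocyte genes did not move as a group: 1 of 14 rose (Itgam) and 1 fell (the macrophage mannose receptor Mrc1, -1.11, SE 0.31, lost without P14 replicate 1), with a median of -0.12.

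Clock genes leaned upward, with 4 of 17 called higher, none lower and a median of 0.69. Nr1d1, a repressor that turns with the day, read 489.3, 519.7 and 538.7 at P14 and 2006, 1367 and 2290 at P28 (1.81, SE 0.27, adjusted p = 2.8e-05). Arntl, the activator that Nr1d1 represses, rose as well, from 329.2, 322.9 and 303.9 to 657.5, 807.2 and 786.8 (1.19, SE 0.26). Neither gene overlapped between the ages. Bhlhe40 and Dbp were the other called members, but both lost their calls without P14 replicate 2 or P28 replicate 3, which left 2, and under both normalizations. The labels give no time of day for the dissections, so the part of collection time in these values was not tested. The E-box CACGTG, through which the core clock activators bind, was in the 250-base window of 5 of 15 clock genes and of 6.02% of all promoters. It was in none of the windows of Arntl, Nr1d1 and Dbp.

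Genes of lipid and cholesterol synthesis rose in 6 of 19 cases and fell in 1, with a median of 0.67. Scd1, the desaturase that makes oleate, read 343.1, 173 and 165.5 at P14 and 1069, 862.3 and 1470 at P28 (2.28, SE 0.33, adjusted p = 2.03e-05). Hmgcs1, an early enzyme of the cholesterol route, rose by 1.24 (SE 0.23) and the squalene epoxidase Sqle by 1.23 (SE 0.19), both without overlap between ages. The count was 3 without P14 replicate 2. After quantile normalization 1 gene was called higher and 2 lower, and Hmgcs1 and Sqle were not called. The gene that fell was Elovl4, which builds very long fatty acids (-1.89, SE 0.6), and it lost its call without P14 replicate 2, P28 replicate 1 or P28 replicate 3.

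Genes of the stromal matrix were largely on the falling side. Of 11 fibrillar collagens 5 fell, none rose and the median was -0.97. Col1a2, a chain of type I collagen, which is the main fibril of the cornea, read 7427, 6990 and 6833 at P14 and 1635, 1438 and 2033 at P28 (-2.06, SE 0.38, adjusted p = 0.000237). Col1a1, its partner, went from 3574, 4072 and 3975 to 1138, 767.8 and 1292 (-1.88, SE 0.39). Col3a1 (-2.25, SE 0.45), Col5a2 (-2, SE 0.29) and Col11a1 (-2.15, SE 0.27) fell likewise, and for these 5 genes all P28 arrays were below all P14 arrays. Col5a1, the other main chain of type V collagen, had a difference of -0.52 (SE 0.15) and was not called.

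Among 19 other matrix collagens 6 fell, none rose and the median was -0.22, with 3 calls when P28 replicate 2 was left out. Col14a1, a collagen that coats fibrils during their early growth, had one of the deepest falls, from 6112, 3039 and 3883 to 510.5, 235.7 and 174.1 (-3.83, SE 0.42, adjusted p = 5.48e-07). Col6a3, of the beaded type VI filaments, fell by 1.71 on the log2 scale (SE 0.39). Col8a1, a chain of the type VIII collagen of Descemet's membrane under the endothelium, read 2402, 3391 and 1709 and then 604.6, 373.1 and 446.4 (-2.33, SE 0.47).

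Enzymes and chaperones that process collagen fell with it: 10 of 24 fell, 3 rose and the median was -0.87. P14 replicate 1 was the highest P14 array for 21 of the 24 genes of collagen folding and crosslinking (87.5%, against 47.4% of all genes), and without it 7 fell and the median was -0.56. Serpinh1, the collagen chaperone HSP47, read 2342, 1843 and 2008 at P14 and 783.5, 426.7 and 561.9 at P28 (-1.81, SE 0.24, adjusted p = 7.73e-06). The prolyl hydroxylase P3h1 went from 1286, 674.1 and 623.9 to 128.6, 118.2 and 121 (-2.59, SE 0.39), and Lox, which crosslinks collagen and elastin, from 1601, 925.6 and 1421 to 208.7, 272.8 and 217.6 (-2.39, SE 0.51). No array of one age overlapped the other for these 3 genes. The members that rose read higher on the epithelium array than on the stroma array: Tgm2, transglutaminase 2, from 336.8, 282.1 and 283.7 to 2718, 2180 and 1958 (2.85, SE 0.18), Pcolce2, an enhancer of procollagen cleavage (2.13, SE 0.47), and the prolyl hydroxylase P3h2 (1.01, SE 0.3). P3h2 lost its call without P14 replicate 2 or P28 replicate 3 and under both normalizations.

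The list of fetal, elastic and adhesive matrix had 11 of 23 members called lower and 1 higher, with a median of -1.11. P14 replicate 1 was the highest P14 array for 18 of the 23 (78.3%, against 47.4% of all genes). With single arrays left out, 8 to 11 were called lower and the median lay between -1.26 and -0.93. Mfap2, a protein of elastic microfibrils, read 2354, 1473 and 1478 at P14 and 256.4, 222.7 and 264.5 at P28 (-2.72, SE 0.33). Fbn2, the fibrillin of fetal microfibrils, went from 698.3, 394.7 and 396.2 to 71.56, 47.61 and 72.47 (-2.65, SE 0.35). Periostin (Postn, -2.61, SE 0.61) and thrombospondin 2 (Thbs2, -2.27, SE 0.32) fell, in each case with no overlap of arrays. The riser was Tgfbi, an adhesive protein of the cornea (1.07, SE 0.26), which was not called without P14 replicate 2 or P28 replicate 3 or under either normalization.

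The small leucine-rich proteoglycans, which space collagen fibrils, had 4 of 12 members called lower, none higher and a median of -0.88. Aspn read 1700, 981.2 and 595.9 at P14 and 418.3, 122.9 and 64.33 at P28 (-2.58, SE 0.59), and without P28 replicate 1 its difference was -3.26. Fmod (-2.15, SE 0.5) and Ogn (-1.85, SE 0.49), fibromodulin and osteoglycin, fell with no overlap between ages. Lumican and decorin were not called: Lum differed by -1.13 (SE 0.57, adjusted p = 0.131) and Dcn by -0.3 (SE 0.41). In keratan sulfate synthesis 2 of 12 genes fell (16.7%, against 3.5% of all genes), both sulfotransferases. Chst5, which sulfates corneal keratan sulfate, read 1957, 2212 and 1792 and then 604, 354.2 and 548.2 (-1.98, SE 0.25), and Chst2 fell by 1.29 (SE 0.27). Of 19 metalloproteases and inhibitors 5 fell and none rose (median -0.45), led by the membrane-type protease Mmp16, from 820, 504.3 and 646.7 to 96.97, 76.82 and 100.9 (-2.63, SE 0.31).

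**Figure D4:**
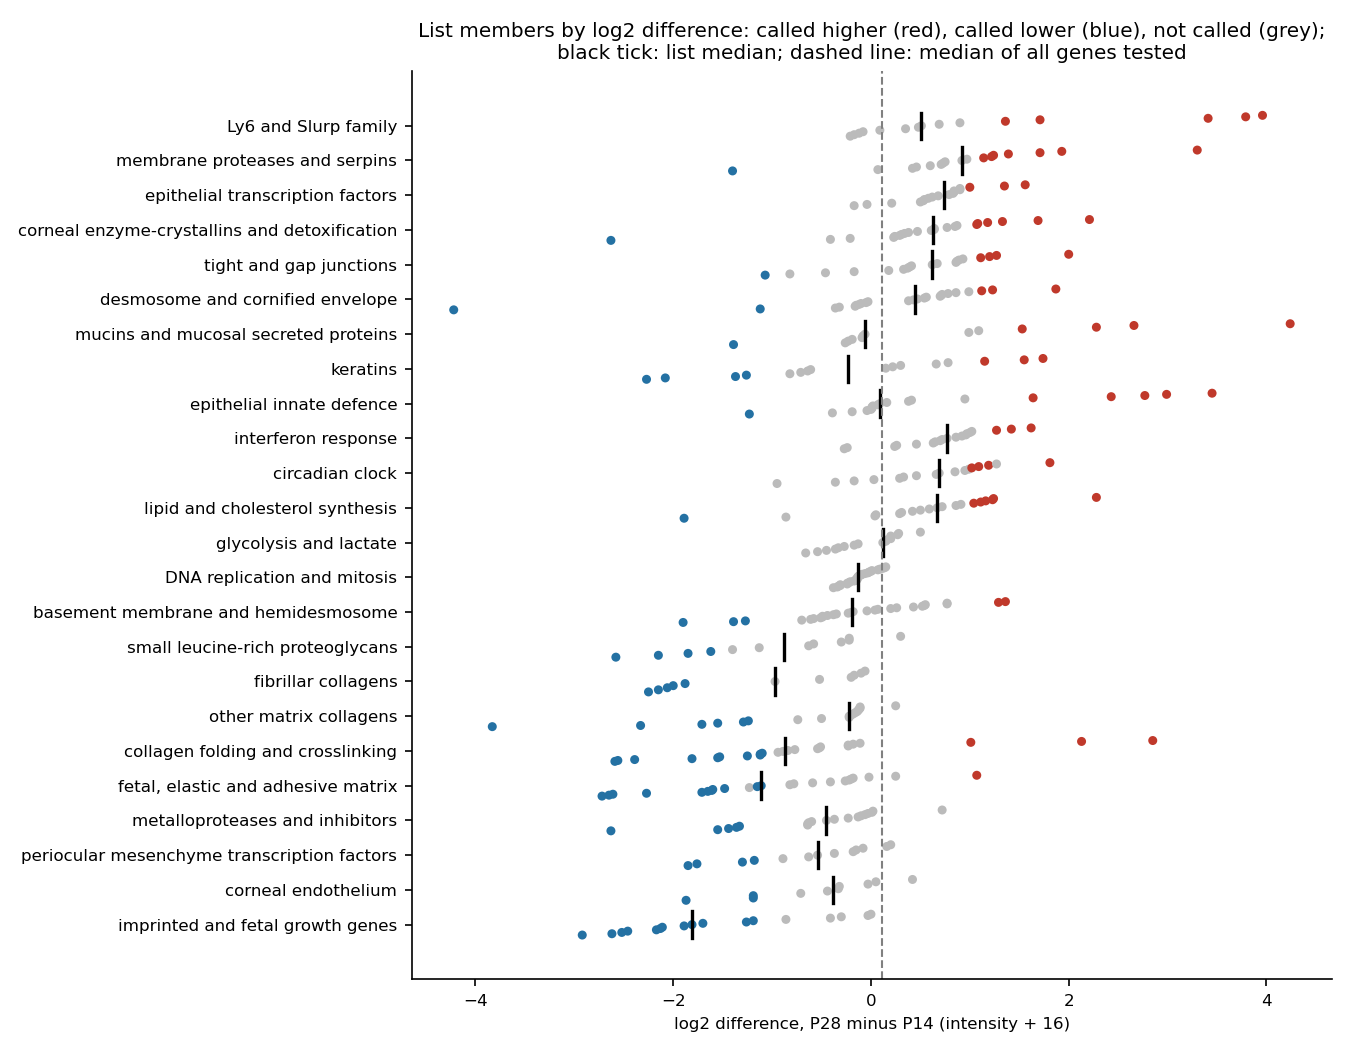
Log2 difference of P28 minus P14 for each tested member of 24 gene lists, with members called higher in red, called lower in blue and not called in grey; black ticks are list medians and the dashed line is the median of all genes, 0.11. Imprinted and matrix lists lie to the left, with 12 of 17 imprinted and fetal growth genes called lower, surface and protease lists reach to the right, and the replication list stays between -0.38 and 0.15.

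The list with the lowest median, -1.81, was that of imprinted and fetal growth genes, of which 12 of 17 fell and none rose. Most of these are active in the embryo and quieten across organs after birth. P14 replicate 1 was the highest P14 array for 12 of the 17 (70.6%, against 47.4% of all genes). With single arrays left out, 10 to 13 were called lower and the median lay between -1.93 and -1.62. Mdk, the growth factor midkine, read 1764, 1236 and 1246 at P14 and 226.1, 164 and 132.7 at P28 (-2.92, SE 0.26, adjusted p = 3.98e-08). Its relative Ptn, pleiotrophin, went from 3919, 2714 and 1959 to 673, 502.5 and 343.2 (-2.46, SE 0.21). Igf2, the insulin-like fetal growth factor, read 982, 934.7 and 875.6 and then 258.8, 141.2 and 200.9 (-2.17, SE 0.4). All 3 were separate between ages. The growth restrainers Grb10 (-2.52, SE 0.26) and Cdkn1c (-1.81, SE 0.26) fell together with the growth promoter Igf2, and so did the imprinted genes Plagl1 (-2.62, SE 0.46), Peg3 (-2.11, SE 0.28) and Meg3 (-2.13, SE 0.38). The calls of Peg10 and Sgce were lost without P14 replicate 1, and that of Peg10 also without P28 replicate 1.

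Proliferation genes did not move with them. None of 29 genes of DNA replication and mitosis was called, their median was -0.13, and all lay between -0.38 and 0.15. Mki67, the proliferation marker, stood at 1036 ± 126 (SD, n = 3) at P14 and 945.8 ± 94.6 (SD, n = 3) at P28. The mesenchymal transcription factors that mark the periocular origin of keratocytes had 4 of 13 called lower (median -0.54), but 2 without P28 replicate 2. Twist2 read 881.9, 641.4 and 693.4 at P14 and 200.4, 182 and 194.2 at P28 (-1.85, SE 0.45), and Prrx1 fell by 1.76 (SE 0.51). In retinoid handling 3 of 12 fell (median 0.04): the retinoic acid-degrading enzyme Cyp26a1, from 337.4, 246.1 and 312.9 to 53.39, 35.6 and 19.2 (-2.64, SE 0.43), and the binding proteins Crabp2 (-1.91, SE 0.35) and Crabp1 (-1.58, SE 0.33).

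Several of the deepest falls lay outside these groups. Vwde, a secreted protein with von Willebrand and EGF domains, had the largest fall of all genes named here, from 1791, 4824 and 2058 to 79.07, 81.93 and 103.1 (-4.67, SE 0.58, adjusted p = 3.13e-06). Otor, otoraplin, a secreted protein known from the cochlea, read 6110, 1411 and 1642 and then 74.38, 117.9 and 102.2 (-4.44, SE 0.43), and P14 replicate 1 stood far above the other P14 arrays. Without that array the difference of Otor was -3.77. Ecrg4, the precursor of augurin, fell from 6337, 3856 and 1638 to 292.3, 170.8 and 136.9 (-4.06, SE 0.38). Tac1, which encodes the neuropeptide substance P, read 2876, 626.1 and 517.4 at P14 and 36.93, 92.54 and 34.22 at P28. Again P14 replicate 1 was the highest, and the difference of -3.92 (SE 0.46) was -3.15 without it. Slc38a4, an amino acid transporter that is imprinted in mice, fell by 3 on the log2 scale (SE 0.3) and Sox11, a fetal transcription factor, by 2.86 (SE 0.32). Schwann cell genes of the nerve list such as Sox10 (-0.22) and Mbp (0.39) were not called. Erbb3, a neuregulin receptor in both the nerve list and the EGF receptor family list, rose by 1.2 (SE 0.3) but not after quantile normalization. Its rise cannot be assigned to a cell type in whole corneas.

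Endothelial genes fell in 3 of 10 cases (30%, against 3.5% of all genes), with a median of -0.39. The count was 1 without P14 replicate 2 or P28 replicate 2, the lens-rich arrays, and 0 without both (corneal endothelium list, median -0.27). Cdh2, the N-cadherin of endothelial junctions, read 295.9, 652.9 and 243.9 at P14 and 109, 62.62 and 96.02 at P28 (-1.87, SE 0.42). It was highest at P14 and lowest at P28 on those same replicate 2 arrays, and without both its difference was -1.27 (SE 0.49, adjusted p = 0.0782). The ion transport genes Atp1b1 and Slc4a4 had differences of -1.19 each, with SE 0.29 and 0.43, and both lost their calls without P14 or P28 replicate 2, Slc4a4 also without P14 or P28 replicate 1. The part of lens tissue in these values was not tested.

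Glycolysis and housekeeping lists stayed near the median of all genes. No gene of 17 in glycolysis and lactate handling was called (median 0.12), and respiratory chain genes had 1 of 88 called higher (median 0.22). Cytosolic ribosomal proteins had 1 of 69 called lower, the testis-type paralog Rpl39l (-1.46, SE 0.33), with a median of 0.17. Wnt (19 tested) and Notch (15 tested) genes had no call, with medians of -0.08 and 0.13. In the TGF-beta list 1 of 23 genes rose (4.35%) and 2 fell (8.7%), against 4.15% and 3.5% of all genes. The receptor Tgfbr1 rose by 1.24 (SE 0.13), though not after quantile normalization. The ligand Tgfb2 and the antagonist Fst had calls that were lost without P14 replicate 2. Of 153 olfactory receptor genes tested, a family with no role in the cornea, none was called.

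The neighbouring steps share arrays with P28 against P14 and are given beside it only as values. P14 against P7, on the earlier side of the break, had 0 genes called in the limma fit, with 819 at an unadjusted p under 0.05. This count was 0 to 3 when single P14 arrays or P28 arrays were left out and 119 with array weights. From P28 to 2 months, on the later side of the break, 275 genes (2.12%) were called, 80 higher (0.615%) and 195 lower (1.5%). Lens genes summed to 95420 on 2 months replicate 1, and retinal genes to 10170 and 10900 on 2 months replicates 1 and 2. The median log2 intensity of 4 sex-linked genes was 4.49 to 5.12 at 2 months, against 4.77, 9.66 and 9.84 on P28 replicates 1 to 3. Of these 4 genes 3 were called lower at 2 months. The parts of other tissue and of sex in this step were not tested. Gkn1 and Slurp1 were not called from P28 to 2 months: Gkn1 read 4017, 4878 and 4278 at 2 months and Slurp1 8943, 7620 and 9086. Igf2 read 249.6, 322.2 and 474.3, and Col1a2 1137, 1549 and 1471. Other genes moved again by 2 months. Of the 7 largest risers, Plekhs1 (-1.97, SE 0.68), Clca3b (-2.28, SE 0.64) and Il1f9 (-1.97, SE 0.71) were called lower at 2 months than at P28. Plekhs1 read 3337, 217.5 and 252.4 and Il1f9 2670, 149.3 and 144 at 2 months, each high on replicate 1 alone, and Clca3b read 354.7, 242.9 and 115.7. Cdh2 rose by 1.75 (SE 0.42) from P28 to 304.4, 403.2 and 295.4, Col8a1 by 1.84 and Chst5 by 1.39, and Krt18 by 1.28, so the low P28 values of these genes were not kept within the arrays of the later side. Arntl fell by 1.66 to 254, 233.9 and 190.9, and Krt7 and Krt19 fell further, by 1.76 and 1.31.

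A comparison that shares no array with P28 against P14 crosses the same break. In 2 months against P7, 878 genes (6.75%) were called, 314 higher (2.42%) and 564 lower (4.34%). Of the genes called higher in P28 against P14, 219 were also higher there, which is 40.6% of the P28 list and 69.7% of the 2 months list. Of the genes called lower, 339 were shared, 74.5% of the P28 list and 60.1% of the 2 months list. In each direction 1 gene was called the opposite way. Both comparisons set arrays of the later side against arrays of the earlier side, so the overlap does not tell age from array batch.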

How the data were processed

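The values were used as deposited: linear intensities, 1 per probe set and array, made by the authors. The tools named in the submitters' processing notes are PLIER and Affymetrix Expression Console 1.1. Their use of any further normalization is not given in the sources used here. Of 35557 probe sets, 21789 had 1 gene symbol. Probe sets above the array median on at least 2 of 32 whole-cornea arrays were kept (14329), the brightest per gene (12998 genes). The number of arrays limits the precision.

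A model with 1 mean per age was fitted to log2 of the intensity after adding 16 with limma 3.58.1 in R 4.3.3 (20 residual, 4.1 prior degrees of freedom), two-sided. The fit was first run on simulated data with known changes and independent noise. That simulation held no other tissue, shared deviation of replicates or break between arrays, so it does not bear on them. Same-numbered P14 and P28 arrays deviated together from their age means (r = 0.25, 0.14 and 0.16), although the labels tie no number to a litter or animal. So the replicate number was also fitted as a block.

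The lists (46, with 1973 entries, of which 1913 had a probe set and 956 were tested) and the comparison were chosen with earlier results of these data known. Genes named are list members and the 15 largest rises and falls without overlap of arrays, symbols of unnamed transcripts left out. Alternatives covered the offset, filter, scaling, probe set choice, moderation, arrays in the fit and Xist as a covariate.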

Additional observations from a re-analysis of the deposited data

How the results depend on the processing

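The 172 named genes that were called kept their direction in the alternatives that gave a value. With the replicate number as a block, 539 genes were higher and 455 lower, 993 of them the same genes, and no named call changed; in a block fit of the 6 arrays alone, chosen after seeing the data, the counts were 548 and 489. Leaving out single arrays gave 439 to 662 higher and 409 to 501 lower, and dropping P14 replicate 1 with P28 replicate 3, also chosen after seeing the data, gave 796 and 342. Leaving out both replicate 2 arrays, the lens-rich ones, gave 407 higher and 373 lower and ended 45 of the 172 named calls. Dropping P14 replicate 1 with P28 replicate 3 ended 38, quantile normalization 28, array weights 20 and median centring 10. Without a threshold on size, 4144 genes were called in P28 against P14 (3121 higher, 1023 lower), 2 in P14 against P7, 3131 in 2 months against P28 and 3365 in 2 months against P7, with 1033 shared higher and 667 shared lower. At a log2 threshold of 2 these were 154 (55 and 99), 24 for 2 months against P28, 205 for 2 months against P7, and 30 and 72 shared. P14 against P7 gave 1 call with an offset of 1, 3 with quantile normalization, 3 with median centring, 119 with array weights, 1 with Xist as a covariate, 3 without both replicate 2 arrays, 2 without P14 replicate 1 and P28 replicate 3, and 0 to 3 without single arrays. At a 4-fold layer difference, 42 of the genes called higher read higher in epithelium and 43 of those called lower in stroma. The cause of these moves was not tested, apart from the thresholds themselves. The 3 arrays per age, their unstated origin and the break between arrays limit every value; low intensities near the added 16 have compressed differences.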
